A study of Mus musculus with 204 samples.

Results

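The heart libraries of obese mice were compared with those of lean mice, taking 8 of the 204 libraries of a tissue series and the 1732 of 13153 genes whose mean over those 8 libraries was at least 10 counts per 1000000 reads (CPM). The mice were wild-type male C57BL/6J, an inbred strain that becomes obese on fat-rich food, and carried no transgene or mutation. The 5 diet-induced obese (DIO) libraries came from mice that had eaten a diet with 60% fat, 20.0% protein and 20% carbohydrate for 10 weeks. The lean libraries came from mice on standard chow with 13.1% fat, 24.5% protein and 62.4% carbohydrate, so that fat, protein and carbohydrate all differed between the groups, and the basis of the percentages was not given. The labels put the start of the fat-rich diet at 4 weeks of age but the arrival of the mice at 6 to 12 weeks, and did not give the age at sampling. RNA came from frozen pieces of heart, and the labels did not say which chambers a piece held. Of 5 lean heart libraries, lean 1, 2 and 4 were used. Lean 3 was left out because it held the fat gene Pck1, and lean 5 because its Ndufc1 was low. These choices used measured values of Pck1 and Ndufc1, so neither gene is a result here. The series was designed with 5 DIO and 5 lean mice, but no label tied a library to a mouse, and the p-values measure the spread between these libraries.

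Heart muscle draws most of its energy from fatty acids, which it oxidises in mitochondria, and takes the rest from glucose, lactate, ketone bodies and amino acids. Fatty acids that enter a heart muscle cell also act as ligands of the peroxisome proliferator-activated receptors (PPARs), nuclear receptors that pair with the retinoid X receptor and switch on genes of fatty acid transport, β-oxidation and peroxisomes. A fat-rich diet raises the supply of fatty acids to the heart, and the comparison asks which transcripts of the heart differ between DIO and lean mice.

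The deposited table ran through chromosomes 1, 2, 3 and X and the first part of chromosome 4, and held 13.2% to 15.6% of the reads of the 8 libraries, whose totals were 19.3 to 25.4 M reads. Genes elsewhere in the genome, among them many of fat oxidation, were not analysed here. The tissue label held against heart markers: Actc1 (cardiac actin) was at 6343 to 8218 CPM, Tnnt2 (cardiac troponin T) at 5235 to 6899 CPM and Mybpc3 (cardiac myosin-binding protein C) at 2429 to 3198 CPM in the 8 libraries. The highest mean of another tissue was 62.9, 21.6 and 34.6 CPM for these markers in turn. Lean 3, not used, held Pck1 at 257.9 CPM, against at most 0.816 CPM in the 8 libraries. It held Mybphl, an atrial gene, at 111 CPM, against 7.65 CPM in DIO 4 and at most 0.208 CPM in the other libraries used. Lean 5, not used, held Ndufc1, a respiratory chain subunit, at 33.5 CPM, against 115 to 148 CPM.

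The libraries also fell into 2 classes that crossed the diets. Titin (Ttn), the giant spring protein of the sarcomere, was at 4797, 4351 and 4986 CPM in DIO 3, 4 and 5 and at 5666 CPM in lean 4. It was at 2038 and 1933 CPM in DIO 1 and 2 and at 2110.0 and 2092 CPM in lean 1 and 2. The first principal component separated these classes and took 74.6% of the variance, while the second took 10.7% and set the 5 DIO libraries on one side and the 3 lean libraries on the other. Between the classes 1138 of the 1732 genes (65.7%) passed an adjusted p of 0.05 by limma, a linear model with moderated variances, 992 of them higher and 146 lower in the higher-Ttn libraries; as the classes were drawn from these libraries, this is a description. The longest annotated transcript of the genes that were higher had a median of 4733 nucleotides, against 1567 nucleotides for those that were lower; over the 1732 genes Spearman's rho of the class difference with that length was 0.58, as a description. The part of the class in each diet result was not tested beyond what is given beside it: 3 of 5 DIO libraries but 1 of 3 lean libraries were of the higher class. A model with a term for the class, chosen after the data were seen, is therefore given beside the plain one.

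**Figure D1:**
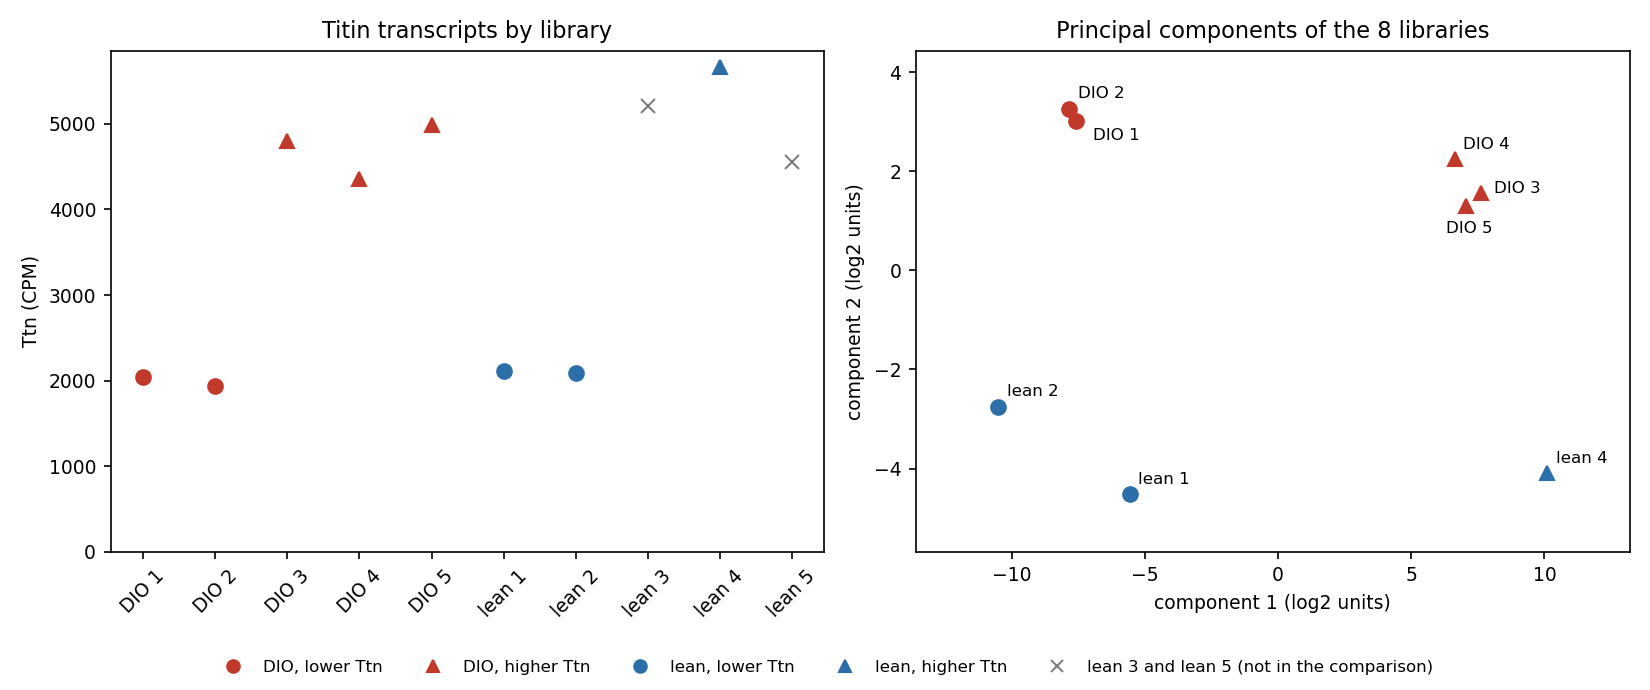
Left, Ttn level in CPM (vertical axis) in each of the 10 heart libraries, with lean 3 and lean 5 as grey crosses. Right, the first principal components of the 8 libraries used, in log2 units: the horizontal component separates the higher-Ttn libraries (triangles, DIO 3 to 5 and lean 4, at 4351 to 5666 CPM) from the lower-Ttn libraries (circles, at 1933 to 2110.0 CPM), and the vertical one separates DIO from lean.

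Of 1732 genes tested, 8 passed an adjusted p of 0.05 (0.462%): 6 rose in DIO hearts (0.346%) and 2 fell (0.115%). Among the genes that rose were Decr1, Etfdh, Hadh, Cat and Igsf1, and those that fell were Tfpi and Stk39. Values are the mean log2(CPM + 1) of DIO minus that of lean libraries ± standard error, with p from limma adjusted by the Benjamini-Hochberg method over all 1732 genes. At an unadjusted p under 0.05 there were 123 genes, 75 higher and 48 lower. All DIO libraries lay above all lean libraries for 64 genes (3.7%) and below them for 43 (2.48%), and the median change over all genes was 0.03. Each of these 7 genes was separated in this way. Separation fixes in advance the sign within both Ttn classes and in the 8 fits that left out a library. The sign was also the same in all 17 alternative analyses, several of which used the same 8 libraries. The count itself was less stable: it was 3 by edgeR and 32 by DESeq2 on whole reads, 2 with all 5 lean libraries, and 75 (4.33% of 1731 genes) with the class term. With all 5 lean libraries Igsf1 passed (0.73, limma, adjusted p = 0.0198), and Decr1 (0.78), Cat (0.38) and Stk39 (-0.44) did not (limma, adjusted p = 0.0587, 0.159 and 0.159). Putting back lean 3 alone gave 15 genes, the 8 among them, and putting back lean 5 alone gave 1. Leaving out DIO 1, 2, 3, 4 or 5 left 4, 1, 0, 0 and 1 genes, and leaving out lean 1, 2 or 4 left 0, 2 and 7 genes. In the fits with 0 calls by limma, 94, 98 and 61 genes had an unadjusted p under 0.05. Of the 8 fits that left out a library, Decr1 passed in 5, Tfpi in 3 and Cat in 2. Etfdh, Igsf1 and Stk39 passed in 1 each and Hadh in 0.

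**Figure D2:**
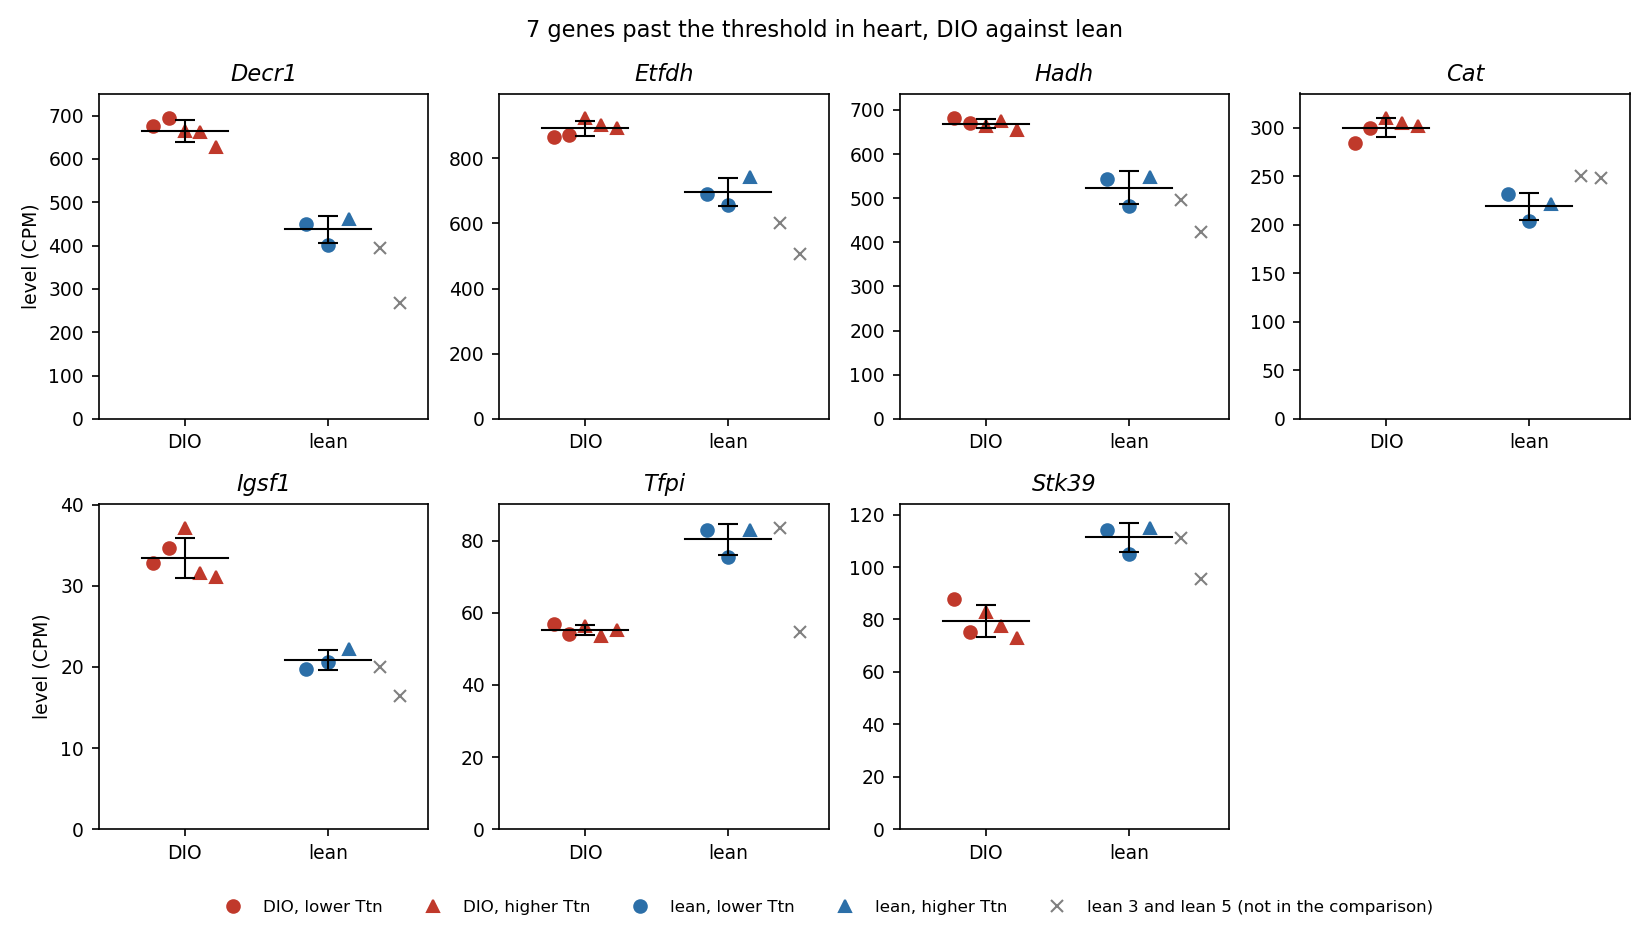
Level in CPM (vertical axes, from 0) of 7 genes past the threshold in each DIO (red) and lean (blue) heart library; circles are lower-Ttn and triangles higher-Ttn libraries, the lines and bars are the mean ± SD over 5 DIO and 3 lean libraries, and grey crosses are lean 3 and lean 5. Every DIO point lies above every lean point in Decr1, Etfdh, Hadh, Cat and Igsf1 and below every lean point in Tfpi and Stk39; for Tfpi the unused lean 5 library, at 54.7 CPM, lies among the DIO points.

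Fat oxidation held called rises. Decr1, the 2,4-dienoyl-CoA reductase that lets unsaturated fatty acids pass through β-oxidation, was at 676, 695, 665, 661 and 627 CPM in DIO 1 to 5, against 449.8, 401 and 461 CPM in lean 1, 2 and 4. The lowest DIO library was well above the highest lean one. The means were 665 ± 25.1 CPM in DIO hearts and 437 ± 31.7 CPM in lean hearts (SD, n = 5 and 3), and the change was 0.61 ± 0.06 (limma, adjusted p = 0.0104), the lowest p of all genes. Within the classes it was 0.69 among the lower-Ttn libraries and 0.50 among the higher-Ttn libraries, and lean 5, not used, had the lowest level of the heart libraries at 268 CPM.

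Etfdh, which passes the electrons of acyl-CoA dehydrogenases on to ubiquinone, was at 864, 872, 924, 901 and 894 CPM in DIO 1 to 5, against 691, 656 and 741 CPM in lean 1, 2 and 4. Its means were 891 ± 24.0 CPM in DIO hearts and 696 ± 43.0 CPM in lean hearts (SD, n = 5 and 3), a change of 0.36 ± 0.06 (limma, adjusted p = 0.0367). Hadh, the 3-hydroxyacyl-CoA dehydrogenase of β-oxidation, was at 683, 670.4, 663, 675 and 654 CPM in DIO 1 to 5, against 543, 482 and 547 CPM in lean 1, 2 and 4. Its DIO libraries spanned a narrow range and its lean libraries a wider one, without overlap. The change of Hadh was 0.35 ± 0.06 (limma, adjusted p = 0.0367), the last gene inside the threshold. Both genes rose within each class, which their separation fixes in advance, and the higher-Ttn values rest on 1 lean library. The change of Etfdh was 0.37 among the lower-Ttn libraries and 0.29 among the higher-Ttn libraries. That of Hadh was 0.40 among the lower-Ttn libraries and 0.28 among the higher-Ttn libraries. With all 5 lean libraries the changes were 0.49 and 0.43 but neither passed (limma, adjusted p = 0.132 and 0.12), and the same was true of edgeR (adjusted p = 0.136 and 0.269).

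Catalase (Cat), the peroxisomal enzyme that breaks down hydrogen peroxide, rose as well. It was at 284, 299.6, 311, 305 and 302 CPM in DIO 1 to 5, against 232, 204 and 221 CPM in lean 1, 2 and 4. All DIO libraries were above all lean libraries, and the unused lean 3 and lean 5, at 250.3 and 248 CPM, lay between the groups. The means were 300.2 ± 9.74 CPM in DIO hearts and 219 ± 13.9 CPM in lean hearts (SD, n = 5 and 3), and the change was 0.45 ± 0.06 (limma, adjusted p = 0.0177). Igsf1, a membrane protein of the immunoglobulin superfamily best known from the pituitary gland, was at 32.8, 34.7, 37.1, 31.5 and 31.1 CPM in DIO 1 to 5, against 19.8, 20.6 and 22.3 CPM in lean 1, 2 and 4, a change of 0.65 ± 0.09 (limma, adjusted p = 0.0177).

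Promoter sequences of the rising genes of fat oxidation and peroxisomes are shown because PPAR and the retinoid X receptor bind a direct repeat of the half-site AGGTCA, with 1 base between the copies, in the promoters of several such genes. Of the 4 genes Decr1, Etfdh, Hadh and Cat, the RefSeq promoter table (GRCm38.p6) had entries for 3. Each is printed as the 250 bases before the annotated start, 5′ to 3′ along the gene, with the stretch nearest to the repeat on either strand in capitals. All 3 genes lie on the minus strand, Cat at chr2:103485154-103485403, Hadh at chr3:131272102-131272351 and Etfdh at chr3:79628768-79629017.
Cat: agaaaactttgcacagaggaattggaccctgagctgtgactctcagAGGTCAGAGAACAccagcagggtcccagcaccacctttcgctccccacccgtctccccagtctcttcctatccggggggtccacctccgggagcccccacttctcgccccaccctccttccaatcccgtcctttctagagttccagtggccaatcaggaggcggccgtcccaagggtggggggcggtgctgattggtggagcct
Hadh: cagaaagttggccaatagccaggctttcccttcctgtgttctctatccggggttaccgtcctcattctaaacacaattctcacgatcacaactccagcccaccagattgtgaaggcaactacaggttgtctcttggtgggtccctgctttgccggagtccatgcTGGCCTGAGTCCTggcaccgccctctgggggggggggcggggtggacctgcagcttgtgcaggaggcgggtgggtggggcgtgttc
Etfdh: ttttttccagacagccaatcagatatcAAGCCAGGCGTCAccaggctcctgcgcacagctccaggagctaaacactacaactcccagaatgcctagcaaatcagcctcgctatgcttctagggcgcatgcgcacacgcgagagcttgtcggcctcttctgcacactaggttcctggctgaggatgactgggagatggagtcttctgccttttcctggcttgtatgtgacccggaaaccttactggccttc
The nearest stretch in Cat differed from the repeat at 2 of its 12 fixed letters and read in the direction of the gene. In Hadh it differed at 3 letters, on the opposite strand, and in Etfdh at 4 letters. Over all 32851 promoter windows of the same length, 3.24% held a stretch as near as that of Cat, 21.3% one as near as that of Hadh and 74.5% one as near as that of Etfdh. A match to letters is a description and shows no binding.

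All gene lists were chosen with earlier results of these data known, so the shares of their members that passed are descriptions. The fatty acid oxidation list held 36 genes, 11 of them in the table and 10 above the level filter (Acsl3 was below it). Of these 10, 3 rose (Decr1, Etfdh and Hadh), none fell and 7 did not pass, against 0.346% and 0.115% of all genes tested. The median change was 0.33, against 0.03 over all genes, and 7 of 10 had all DIO libraries above all lean libraries, against 3.7% of all genes. The summed level of the list was 5584 to 5737 CPM in DIO libraries and 4140.0 to 4689 CPM in lean libraries, without overlap. Among the members that did not pass, Dbi, the acyl-CoA-binding protein, was at 129.8, 138, 111, 105 and 104 CPM in DIO 1 to 5, against 85.5, 85.3 and 75.1 CPM in lean 1, 2 and 4. Its change was 0.51 ± 0.11 (limma, adjusted p = 0.124). The unused lean 3, at 191 CPM, was above every DIO library, and the unused lean 5, at 42.8 CPM, below every library used. With all 5 lean libraries the change of Dbi was 0.45 (limma, adjusted p = 0.994).

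Crat, the carnitine acetyltransferase that buffers acetyl-CoA, averaged 615 ± 10.9 CPM in DIO hearts and 480.4 ± 49.0 CPM in lean hearts (SD, n = 5 and 3), with a change of 0.36 ± 0.07 (limma, adjusted p = 0.0732). The unused lean 5, at 734 CPM, was above every DIO library for Crat. With all 5 lean libraries the change of Crat was 0.25 (limma, adjusted p = 0.994). Acadl, the long-chain acyl-CoA dehydrogenase, averaged 1188 ± 20.1 CPM in DIO hearts and 963 ± 67.0 CPM in lean hearts (SD, n = 5 and 3), with a change of 0.31 ± 0.06 (limma, adjusted p = 0.0732). Acadm, the medium-chain acyl-CoA dehydrogenase, averaged 1484 ± 27.2 CPM in DIO hearts and 1234 ± 92.6 CPM in lean hearts (SD, n = 5 and 3), with a change of 0.27 ± 0.06 (limma, adjusted p = 0.128). The 7 separated members were all higher within both Ttn classes, which their separation fixes in advance. The remaining members, Slc27a4, Acad9 and Acsl4, lay between -0.17 and 0.00. With the class term, Dbi, Crat, Acadl and Acadm passed as well, so that 7 of 10 members rose, against 2.31% of all 1731 genes in that fit (Ttn left out). With that term and all 5 lean libraries only 3 of 1731 genes passed, so the larger count was not reached with lean 3 and lean 5 included.

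**Figure D3:**
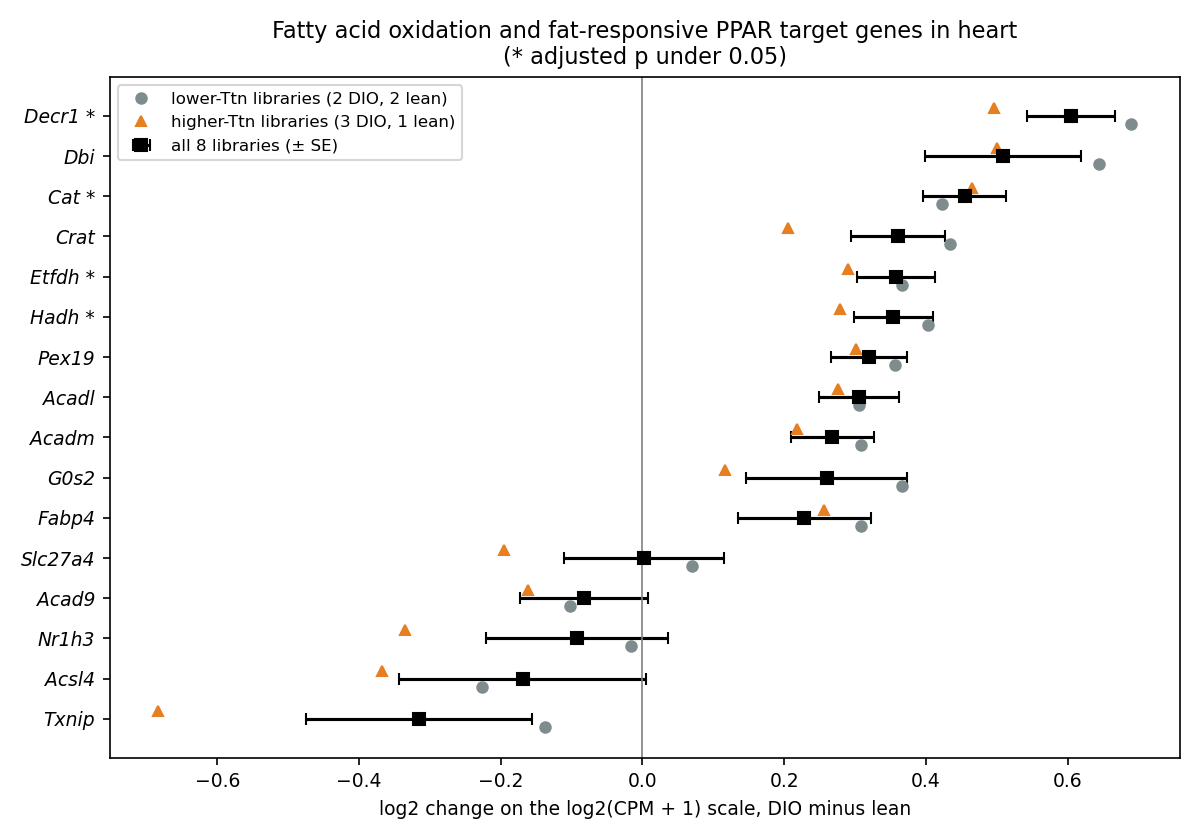
Log2 change (horizontal axis, DIO minus lean on the log2(CPM + 1) scale) of 16 tested members of the fatty acid oxidation and PPAR target lists; black squares are the 8 libraries ± SE, grey circles the lower-Ttn and orange triangles the higher-Ttn libraries, and stars mark an adjusted p under 0.05. Decr1 to Fabp4 lie above 0 in both classes, and Acad9, Nr1h3, Acsl4 and Txnip lie below 0.

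The list of fat-responsive PPAR targets, which shared 3 genes with the fat oxidation list, had 10 tested members, of which 3 rose (Decr1 and Cat among them), none fell and 7 did not pass, against the same 0.346% and 0.115%. Its median change was 0.29. Pex19, a carrier that brings membrane proteins to peroxisomes, was the first gene outside the threshold. It was at 151, 151, 147, 136 and 149 CPM in DIO 1 to 5, against 118, 118 and 117 CPM in lean 1, 2 and 4, a change of 0.32 ± 0.05 (limma, adjusted p = 0.0517). G0s2, an inhibitor of triglyceride breakdown, had a difference of 0.26 ± 0.11 (limma, adjusted p = 0.702), and Txnip, which restrains glucose uptake, one of -0.32 ± 0.16 (limma, adjusted p = 0.772). With the class term 7 of the 10 rose (Decr1, Cat, Pex19, Acadl, Fabp4 and Acadm among them), against 2.31% of all genes. Fabp4, a fatty acid carrier of adipocytes and of heart capillaries, was at 562, 581, 487, 449 and 524 CPM in DIO 1 to 5, against 462, 460.3 and 407 CPM in lean 1, 2 and 4, and these groups overlapped; its sign turned when lean 3, at 1118 CPM, was put back (log2 change -0.11).

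Other routes of energy metabolism held no call. None of 17 respiratory chain and ATP synthase subunits passed, with a median change of 0.00; the members ran from -0.16 to 0.13. None of 10 genes of the tricarboxylic acid cycle and pyruvate dehydrogenase passed (median 0.05). Pdk1, a kinase that turns off pyruvate dehydrogenase, was at 266, 260.2, 256, 249 and 243 CPM in DIO 1 to 5, against 215, 225 and 238 CPM in lean 1, 2 and 4. Its groups did not overlap, yet its change of 0.17 ± 0.06 did not pass (limma, adjusted p = 0.437). No call was made among 4 genes of glucose uptake and glycolysis (median 0.01), 7 of glycogen (0.11), 6 of branched-chain amino acid breakdown (-0.03), 8 of mitochondrial biogenesis and dynamics (-0.03) or 3 of cholesterol and fatty acid synthesis (-0.06).

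Some of these members passed with the class term, in a fit where 2.31% of all genes rose and 2.02% fell. Pfkfb2, which makes the activator of phosphofructokinase in heart, was at 29.5, 23.9, 53.5, 53.1 and 48.5 CPM in DIO 1 to 5, against 34.0, 38.4 and 74.6 CPM in lean 1, 2 and 4. It was higher in each higher-Ttn library than in any lower-Ttn one, and within the classes its change was -0.43 among the lower-Ttn libraries and -0.52 among the higher-Ttn libraries. It was -0.21 ± 0.34 without the term (limma, adjusted p = 0.989) and -0.47 ± 0.08 with it (limma, adjusted p = 0.00882). Its sign turned, without a call, when lean 4 was left out (0.13) and with array weights (0.092), both without the term. Dbt, a subunit of the branched-chain keto acid dehydrogenase, was -0.22 ± 0.05 with the term (limma, adjusted p = 0.0355) and -0.21 ± 0.06 without it (limma, adjusted p = 0.32). Esrrg, a nuclear receptor of oxidative metabolism, was -0.26 ± 0.06 with the term (limma, adjusted p = 0.0304) and -0.22 ± 0.08 without it (limma, adjusted p = 0.577).

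Among 13 genes of insulin and growth factor signalling none passed, with a median of 0.05. Irs1, the adaptor that couples the insulin receptor to its kinases, had the lowest change of the list. It was at 14.2, 17.3, 24.6, 21.3 and 24.2 CPM in DIO 1 to 5, against 34.5, 27.3 and 53.3 CPM in lean 1, 2 and 4. Every DIO library was below every lean library, and lean 4 was the highest. The means were 20.3 ± 4.5 CPM in DIO hearts and 38.4 ± 13.4 CPM in lean hearts (SD, n = 5 and 3), and the change was -0.86 ± 0.24 (limma, adjusted p = 0.325). It was -0.93 among the lower-Ttn libraries and -1.16 among the higher-Ttn libraries, and with the class term -1.03 ± 0.10 (limma, adjusted p = 3.3e-04). DESeq2 gave -0.94 without the class term (adjusted p = 8.0e-05) and edgeR -0.94 (adjusted p = 0.0708). Prkab2, a regulatory subunit of the AMP-activated kinase, was 0.23 ± 0.05 with the class term (limma, adjusted p = 0.0376) and 0.19 ± 0.07 without it (limma, adjusted p = 0.581).

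The 2 genes that fell have their known roles outside fuel use. Tfpi, the inhibitor of the tissue factor pathway of coagulation, made largely by endothelial cells, was at 56.8, 54.2, 56.5, 53.5 and 55.1 CPM in DIO 1 to 5, against 82.8, 75.3 and 83.0 CPM in lean 1, 2 and 4. The DIO libraries lay within a few CPM of each other and the lean libraries well above them. The means were 55.2 ± 1.4 CPM in DIO hearts and 80.4 ± 4.36 CPM in lean hearts (SD, n = 5 and 3), and the change was -0.53 ± 0.06 (limma, adjusted p = 0.012). With lean 5 among the lean libraries it no longer passed: with all 5 lean libraries the change was -0.43 (limma, adjusted p = 0.477). Stk39, a kinase that controls cation-chloride cotransporters, was at 87.8, 75.2, 83.0, 77.5 and 72.9 CPM in DIO 1 to 5, against 114, 105 and 115 CPM in lean 1, 2 and 4. Its change was -0.49 ± 0.08 (limma, adjusted p = 0.0367). In a piece of tissue, fewer cells of a type and less RNA per cell cannot be told apart. None of the 14 tested endothelial genes passed (median 0.21). With the class term Fabp4 alone of them rose, against 2.31% of all genes in that fit. The 20 endothelial genes of the table summed to 1126 to 1317 CPM in DIO libraries and 970.3 to 1180.1 CPM in lean libraries, and without Fabp4 to 564 to 830.2 CPM in DIO libraries and 509.95 to 774 CPM in lean libraries, both with overlap; the part of the endothelium in the fall of Tfpi was not tested.

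Further genes were separated between the diets without passing. By lowest p above 50 CPM and beyond those already given, they were Stom and Creg1 on the higher side. Stom, the membrane protein stomatin, had a difference of 0.37 ± 0.08 (limma, adjusted p = 0.0973), and Creg1, a lysosomal glycoprotein, one of 0.34 ± 0.08 (limma, adjusted p = 0.131). On the lower side, Optn, an autophagy receptor, had a difference of -0.32 ± 0.06 (limma, adjusted p = 0.0973), and Rragd, a GTPase that brings mTORC1 to lysosomes, one of -0.28 ± 0.06 (limma, adjusted p = 0.0973). The others of that side were Lypla1, Ehd4, Dbt, Tuba4a, Cisd2, Tnnt2, Nabp1 and Rgs5, between -0.43 for Nabp1 and -0.18 for Rgs5, with adjusted p of 0.179 to 0.437 by limma.

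The contractile machinery held no call. Of 23 sarcomere and cytoskeleton genes none rose or fell, and the median change was 0.06. Tnnt2 averaged 5540.3 ± 192 CPM in DIO hearts and 6462 ± 424 CPM in lean hearts (SD, n = 5 and 3), a change of -0.22 ± 0.06 (limma, adjusted p = 0.33). Xirp2, a protein of the intercalated discs, was separated as well, at 551 to 723 CPM in DIO libraries against 503 to 534 CPM in lean libraries, with a change of 0.29 ± 0.09 (limma, adjusted p = 0.341). None of 16 calcium handling and conduction genes passed (median -0.02), nor any of 6 genes of hypertrophy and stress (0.20).

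The extracellular matrix list held no call. Of 14 tested members 13 lay above 0, none passed and the median change was 0.42, against 0.03 over all genes; with the class term the median was 0.12. The summed level of the 26 genes of that list in the table was 536 to 1154 CPM in DIO libraries and 468 to 1026 CPM in lean libraries, which overlap. Postn, periostin, secreted by activated fibroblasts, was at 24.44, 34.9, 49.2, 63.0 and 45.3 CPM in DIO 1 to 5, against 20.8, 20.9 and 24.35 CPM in lean 1, 2 and 4. All DIO libraries were above all lean libraries, narrowly so for DIO 1 against lean 4, and the unused lean 3 was at 75.8 CPM. The change of Postn was 0.88 ± 0.26 (limma, adjusted p = 0.343), and 0.72 ± 0.15 with the class term (limma, adjusted p = 0.0304). Bgn, the proteoglycan biglycan, was 0.68 ± 0.29 (limma, adjusted p = 0.685), and 0.47 ± 0.11 with the class term (limma, adjusted p = 0.0376). Bgn and Prelp, another matrix proteoglycan, were higher in the higher-Ttn libraries by 0.80 and 1.18.

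The interferon and antigen presentation list held no call. Of 9 tested members 8 lay below 0, none passed and the median change was -0.40; with the class term it was -0.44 and 1 member, Gbp3, fell, against 2.02% of all genes in that fit. Gbp3, a guanylate-binding protein induced by interferon, was at 11.7, 10.9, 14.9, 13.4 and 13.8 CPM in DIO 1 to 5, against 26.3, 20.4 and 18.3 CPM in lean 1, 2 and 4. Its groups did not overlap, and its change was -0.70 ± 0.14 (limma, adjusted p = 0.0973), and -0.71 ± 0.13 with the class term (limma, adjusted p = 0.0126). The unused lean 3, at 18.6 CPM, was above every DIO library, but the unused lean 5, at 11.9 CPM, lay among them. With all 5 lean libraries the change of Gbp3 was -0.50 (limma, adjusted p = 0.994). Gbp7 was at 10.8, 11.9, 18.6, 17.6 and 18.4 CPM in DIO 1 to 5, against 32.8, 17.6 and 23.6 CPM in lean 1, 2 and 4, with overlap, and lean 1 stood highest in both genes. B2m, the light chain of MHC class I, was -0.36 ± 0.16 (limma, adjusted p = 0.716). Within the lower-Ttn libraries B2m was -0.73 and within the higher-Ttn libraries 0.06. Of the 2 tested macrophage and granulocyte genes neither passed, and the sum of that list's 22 genes was 76.1 to 137 CPM in DIO libraries and 82.2 to 109 CPM in lean libraries. The 19 T and B cell genes of the table summed to 20.1 to 26.1 CPM in DIO libraries and 17.9 to 23.7 CPM in lean libraries, and the part of leucocytes in the interferon values was not tested.

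The remaining lists bear on tissue that a heart sample could hold besides heart muscle. The adipocyte list (11 genes) summed to 1357 to 1519 CPM in DIO libraries and 1199 to 1329 CPM in lean libraries, the atrium list (5 genes) to 576 to 772 CPM in DIO libraries and 636 to 687 CPM in lean libraries and the skeletal muscle list (11 genes) to 58.4 to 65.7 CPM in DIO libraries and 50.8 to 60.7 CPM in lean libraries, with Chrnd and Myog at 0 in all 8 libraries. The adipocyte sums did not overlap between diets, but Fabp4 and Trp53inp2 made up 89.5% to 93.5% of each; the other 9 genes summed to 97.8 to 122 CPM in DIO libraries and 111 to 140 CPM in lean libraries, with overlap. Of the 6 tested adipocyte genes none passed; with the class term Fabp4 rose and Irs1 fell, against 2.31% and 2.02% of all genes. The part of adipocytes in the fat oxidation result was not tested. The 8 genes of lung, liver, nerve and thymus summed to 11.9 to 18.1 CPM in DIO libraries and 7.18 to 13.7 CPM in lean libraries. The blood and erythroid list (7 genes) summed to 52.1 to 115 CPM in DIO libraries and 45.1 to 76.8 CPM in lean libraries, and Alas2, the heme synthesis enzyme of red cells, was at 38.1, 13.3, 17.6, 62.5 and 30.0 CPM in DIO 1 to 5, against 14.9, 13.0 and 16.4 CPM in lean 1, 2 and 4. These overlap, with DIO 4 the highest. Of 16 antioxidant and glutathione genes Cat rose, against 0.346% of all genes, and no other passed (median 0.05); Aox1, an aldehyde oxidase, was 0.73 ± 0.24 (limma, adjusted p = 0.476) and 0.56 ± 0.09 with the class term (limma, adjusted p = 0.00782), in a fit where 2.31% of all genes rose. None of 8 fibroblast, pericyte and smooth muscle genes (median 0.16), 16 ribosomal protein genes (-0.05), 10 unfolded protein and heat shock genes (0.03) or 3 clock genes (0.18) passed.

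**Figure D4:**
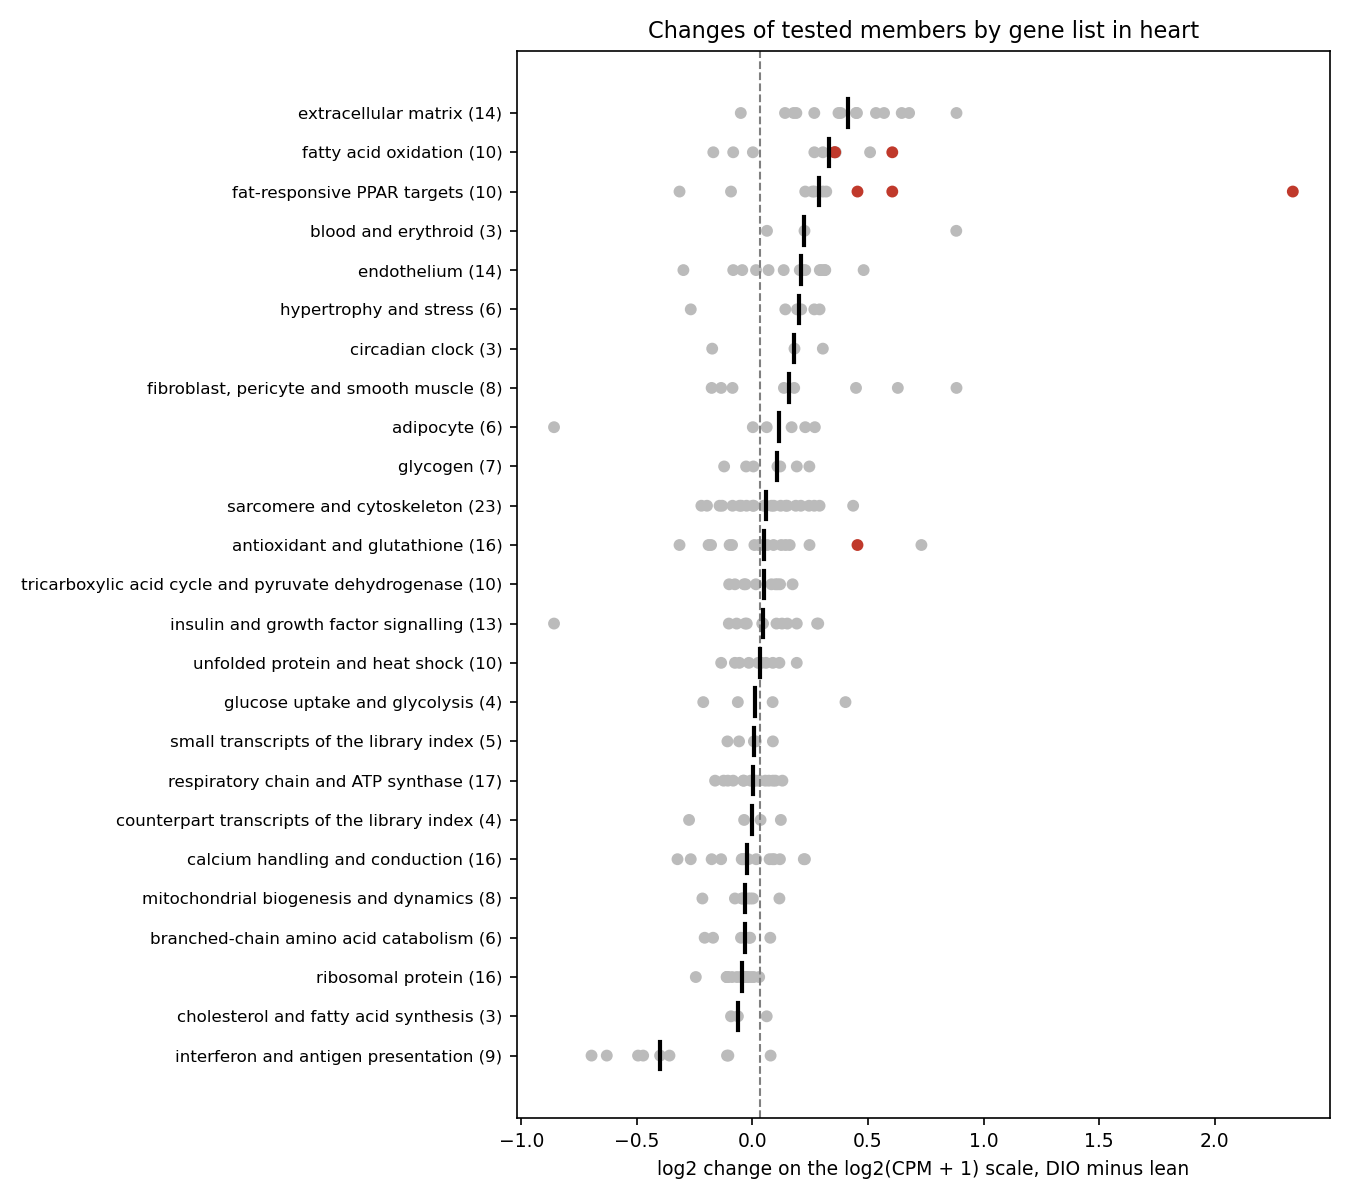
Log2 change (horizontal axis, DIO minus lean) of each tested member of the 25 gene lists with 3 or more tested genes, one list per line with the number tested in brackets. Grey points did not pass, red points rose, black bars are list medians and the dashed line is the median of all 1732 genes at 0.03; red points occur in the fatty acid oxidation, PPAR target and antioxidant lists.

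The diet changes of heart were set beside those of 3 skeletal muscles of the series: soleus, red gastrocnemius and extensor digitorum longus (EDL), with 5 DIO libraries each and 5, 5 and 4 lean libraries. By limma 29 genes passed in soleus (1.71%), 83 in red gastrocnemius (5.06%) and 1 in EDL (0.0684%). The log2 difference of Decr1 was 0.61 ± 0.06 in heart, against 0.88 ± 0.08 in soleus, 0.97 ± 0.07 in red gastrocnemius and 0.32 ± 0.21 in EDL. The log2 difference of Cat was 0.45 ± 0.06 in heart, against 0.49 ± 0.08 in soleus, 0.70 ± 0.07 in red gastrocnemius and 0.50 ± 0.23 in EDL. The log2 difference of Etfdh was 0.36 ± 0.06 in heart, against 0.37 ± 0.06 in soleus, 0.54 ± 0.05 in red gastrocnemius and 0.08 ± 0.16 in EDL. These 3 genes passed in heart, soleus and red gastrocnemius and not in EDL, whose standard errors were wider. Of the 10 tested fat oxidation genes 6 rose in soleus, 7 in red gastrocnemius and, of 9 tested, none in EDL.

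The difference itself, the heart change minus the mean of the muscle changes, passed for 0 of 1732 genes by limma over 37 libraries (62 at an unadjusted p under 0.05; lowest adjusted p = 0.272), which does not show that the tissues respond alike. Per gene it was -0.12 ± 0.16 for Decr1, 0.03 ± 0.12 for Etfdh, 0.11 ± 0.14 for Hadh and -0.11 ± 0.17 for Cat. Tfpi was -0.60 ± 0.20 and Stk39 -0.53 ± 0.19 (limma, adjusted p = 0.988 and 0.994), and both were at most 6.0 CPM on average in any muscle group. Libraries of different tissues may come from the same mice, which this test does not take into account.

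**Figure D5:**
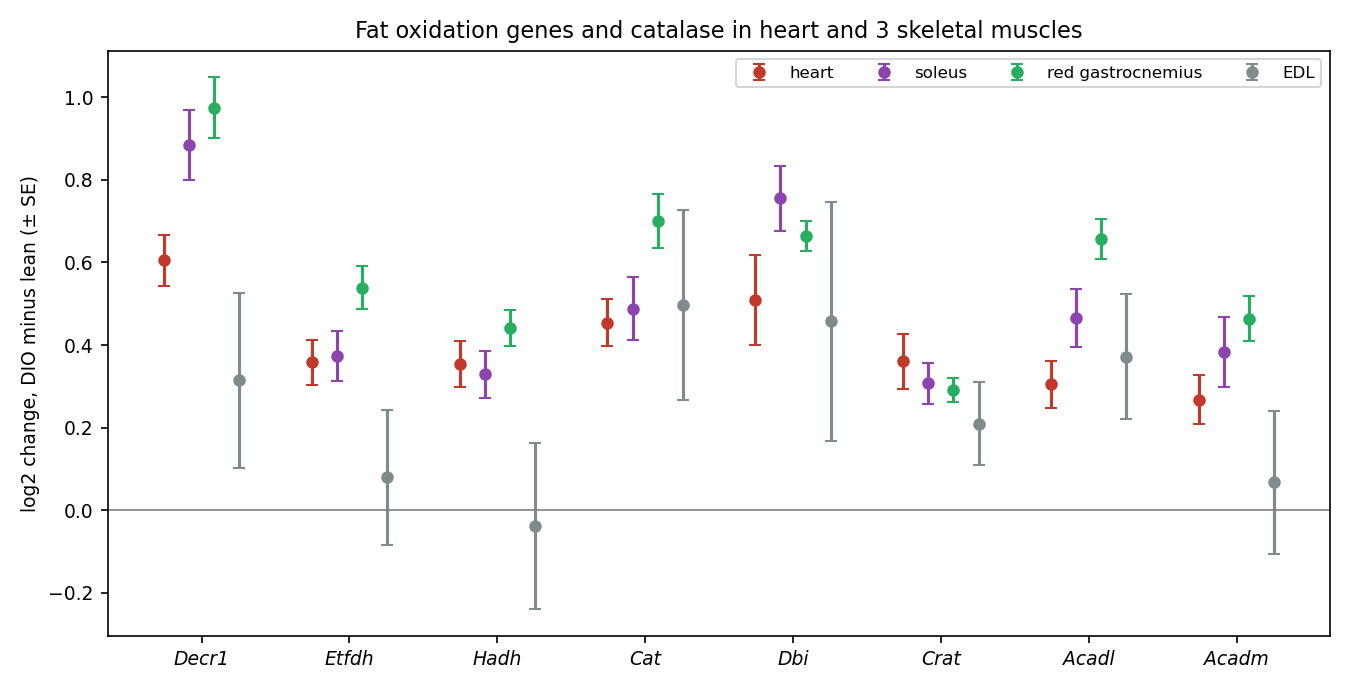
Log2 change ± SE (vertical axis, DIO minus lean) of 8 genes in heart (red), soleus (purple), red gastrocnemius (green) and EDL (grey). Heart, soleus and red gastrocnemius lie above 0 for every gene shown, from 0.27 for Acadm in heart to 0.97 for Decr1 in red gastrocnemius, and the EDL values have the widest bars.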

How the data were processed

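RNA was sequenced from 8 heart libraries, 5 DIO and 3 lean, with 19.3 to 25.4 M reads each. Per the labels' protocols, the kit was TruSeq stranded mRNA and the reads were paired, 100 nucleotides long. FastQC, STAR, HTSeq and DESeq2 appear in the submitters' processing notes; the sources used here give no version, setting, genome build or annotation. The values in the table deposited by the authors are CPM, which the values show to be relative to all reads counted in a library, genes outside the table included. Of 205 columns, 1 matched no sample and was not used; 1 incomplete gene of 13154 was left out. Dividing out the worth of 1 read gave whole reads for 100% of values (tolerance 0.001 read) in the libraries, and the closest replicate pair had a chi-square per degree of freedom of 3.60, so none was counted as a duplicate. Counting error sets the smallest precision of low genes, and intervals were not drawn from it. Gene symbols and chromosomes come from GENCODE M21, which held 13139 of the gene identifiers.

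DIO was compared with lean by limma 3.58.1 in R 4.3.3, with its trend option, using log2(CPM + 1) of the genes that averaged 10 CPM or more; folds of low genes come out too small on this scale. Adjusted p-values follow Benjamini-Hochberg, and 0.05 was the threshold. Genes were named by rule: up to 12 in each direction with full separation and 50 CPM or more in one of the groups, called ones first and then by lowest p, up to 4 of each list, the 4 of lowest p in each direction against the muscles, and the label checks. Not every gene that the rule takes is printed, and 1 of the called genes is not reported here. The members, gene lists (31) and rule were chosen with earlier results of these data known. Alternatives were a pseudocount of 5, other filters, rescaling by median-of-ratios factors, array weights, edgeR 4.0.16 and DESeq2 1.42.0 on whole reads, a single fit over all libraries, the lean libraries used, covariates (an index of 10 genes, the level of Ttn) and leaving out each library. After the data were seen, 4 alternatives with a term for the class of Ttn (a gap of 1.04 in log2) were added. The test was tried on simulated reads. Promoters come from RefSeq, and figures were drawn with matplotlib.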

Additional observations from a re-analysis of the deposited data

Results flagged for a closer look

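Pex19 in DIO 4, at 136 CPM, lay apart from the other DIO libraries (147 to 151 CPM) and above the lean libraries; among 51 printed genes it was the one DIO group flagged for such a gap, and chance flags about 1 group in 20. The lean 3 library, which the comparison does not use, held Mybphl, an atrial gene, at 111 CPM. The 8 libraries used held it at 0 to 7.65 CPM, with DIO 4 the highest and the others at most 0.208 CPM.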

How the results depend on the processing

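The 7 called genes described kept their sign under every alternative and left-out library. For the fits that left out a library, the separation of the groups fixed this in advance. The count of 8 calls (6 rises, 2 falls) became 5 (falls 1) with a filter of 1 CPM, 1 (rises 1, falls 0) after rescaling, 12 (rises 11, falls 1) with array weights, 3 (rises 1) by edgeR, 32 (rises 17, falls 15) by DESeq2, and 2 (rises 2, falls 0) in a single fit over all libraries. It was 2 (rises 2, falls 0) with all 5 lean libraries, 15 (rises 11, falls 4) with lean 3 put back, 1 (rises 1, falls 0) with lean 5 put back, 50 (rises 36, falls 14) with the index covariate and 76 (rises 46, falls 30) with the Ttn covariate. With the Ttn class term it was 75 (rises 40, falls 35), with that term and all 5 lean libraries 3 (rises 2, falls 1), with that term in edgeR 100 (rises 50, falls 50) and with that term after rescaling 68 (rises 45, falls 23); the cause was not tested. A pseudocount of 5 gave 8 and no filter 6. After rescaling without the class term none of the 7 called genes described passed (limma, adjusted p = 0.0564 for Tfpi to 0.278 for Hadh). By edgeR without that term Tfpi alone of the 7 passed (adjusted p = 0.0368). The lowest of the described rises by edgeR was Igsf1 (adjusted p = 0.0628). Leaving out 1 library gave 0 to 7 calls (rises 0 to 6, falls 0 to 2). The median change of all genes was 0.16 with array weights and 0.12 without lean 4, against 0.03, so rises in those fits are relative to that shift. The contrast with the muscles, 0 genes by limma, gave 5 with a pseudocount of 5, 1 with all 5 lean libraries and 0 otherwise. Signs turned, each without a call, for Lypla1 with all 5 lean libraries (0.16, also with the class term), Lypla1 with lean 5 put back (0.27), Dbt (0.0033) and Cisd2 (0.041) with lean 5 put back, Fabp4 with lean 3 put back (-0.11), Pfkfb2 (0.092) and Nexn (0.0049) with array weights, and Pfkfb2 without lean 4 (0.13; leaving out 1 library gave -0.43 to 0.13). Of the other values of printed genes, 1034 kept their side of the threshold, 132 newly passed and 91 no longer passed; of list medians, 575 moved by less than the spread and 50 by more. No paired analysis was possible because the labels carry library identifiers and no replicate numbers. Genes under a mean of 10 CPM, where few reads were counted, were not tested.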

Other observations

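The called genes differ in where else they are expressed. Tfpi averaged 55.2 ± 1.4 CPM in DIO and 80.4 ± 4.36 CPM in lean heart (SD, n = 5 and 3), the 2 highest means of the 42 groups of tissue and diet; the next was DIO adrenal at 41.6 ± 15.04 CPM (n = 5). Stk39 averaged 79.3 ± 6.07 CPM in DIO and 111 ± 5.49 CPM in lean heart, against 139 ± 8.55 CPM in DIO and 145 ± 10.8 CPM in lean midbrain and brainstem (n = 5 each), the tissue whose means were above that of lean heart. Igsf1 averaged 33.5 ± 2.49 CPM in DIO and 20.9 ± 1.27 CPM in lean heart, against 47.5 ± 14.99 CPM in DIO and 59.8 ± 11.7 CPM in lean hypothalamus (n = 5 each). Its mean in lean midbrain and brainstem, 25.0 ± 8.88 CPM, was also above that of lean heart. The DIO mean there, 17.2 ± 2.44 CPM, was not (n = 5 each). These are CPM levels of libraries of different tissues, given as a description.

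The libraries left out also differ in summed levels of gene lists. The adipocyte and respiratory chain lists are not independent of the choice of libraries. The adipocyte list holds Pck1, at 257.9 CPM in lean 3, so its sum and its count of higher genes were partly fixed in advance. Ndufc1, by which lean 5 was left out, is a respiratory chain subunit, so low values of that list in lean 5 are no separate result. In lean 3 the 11 adipocyte genes of the table summed to 3021 CPM, against 1357 to 1519 CPM in DIO libraries and 1199 to 1329 CPM in the lean libraries used, and 9 of the 11 were above all 8 libraries used. The 5 atrium genes summed to 2488 CPM in lean 3, against 576 to 772 CPM in DIO libraries and 636 to 687 CPM in the lean libraries used. Pam made up most of that sum; without it the sum was 317 CPM in lean 3, against 73.9 to 105 CPM in DIO libraries and 70.7 to 107 CPM in the lean libraries used. In lean 5 the respiratory chain and ATP synthase list summed to 5952 CPM, against 7718 to 9094 CPM in DIO libraries and 7889.8 to 9009.7 CPM in the lean libraries used; 12 of its 18 genes were below all 8 libraries used and 2 above. The fatty acid oxidation list summed to 3679 CPM in lean 5, against 5584 to 5737 CPM in DIO libraries and 4140.0 to 4689 CPM in the lean libraries used, with 8 of 11 genes below all 8 libraries used and 2 above.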
